A study of Mus musculus with 6 samples.

Results

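The genes described here serve ribosome biogenesis and RNA polymerase I (Pol I). They are 46 genes of nucleolar RNA processing, ribosome assembly and Pol I transcription, chosen by symbol. Of these, 45 were among the 48587 genes of the count table, and all 45 passed the abundance filter of at least 1 cpm (counts scaled to the library total) in at least 3 libraries, as did 13166 genes in all. Utp4 was not listed under that symbol. Its earlier symbol in RefSeq, Cirh1a, had a row, whose values are given with its complex and are not counted among the 45.

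Ribosomes are assembled in the nucleolus. Pol I, with the factors that bring it to the ribosomal DNA, transcribes a long precursor that holds the 18S, 5.8S and 28S rRNAs, and large protein complexes and small nucleolar ribonucleoproteins (snoRNPs) fold, modify, cut and package it into the small and the large subunit. The output of this line of work is tied to cell growth, and in tumour cells the transcription factor MYC is a known activator of many of its genes.

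The measurements come from 4T1, a transformed line of the mouse mammary gland. In the METTL7A1 group (3 libraries) cells had been stably transfected with full-length Mettl7a1 cDNA, FLAG-tagged, in the pBICEP-CMV-2 vector and kept in G418, and in the mock group (3 libraries) cells carried the empty vector. METTL7A1 is a putative methyltransferase, expressed here from a CMV promoter. Each group was a transfected line compared with another, so that differences between the lines and the effect of METTL7A1 cannot be told apart, and whether lines were single clones is not given in the sources used here. Library totals ranged from 18386780 to 28459338 counts. For Mettl7a1 the METTL7A1 libraries held 6355, 11358 and 10398 counts and the mock libraries 30, 30 and 29, so each library followed its label. The 6 epithelial markers Epcam, Krt8, Krt18, Krt19, Cdh1 and Cldn7 summed to between 1470 and 1801 cpm per library, while the 4 immune and the 3 endothelial markers summed to less than 1 cpm in each. Of the 4 fibroblast markers Pdgfra was present at 17.7 ± 1.32 cpm (SD, n = 3) in mock and higher in METTL7A1 cells with a log2 fold change of 0.47 (SE 0.09), and the other 3 were at or near 0; the part of this gene in the results was not tested. As RNA came from whole cultures, a lower share of a transcript in all cells and its loss from some cells cannot be told apart.

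Most genes of ribosome biogenesis and Pol I transcription were lower in METTL7A1 cells. At an adjusted p under 0.05 (edgeR quasi-likelihood test, adjusted over all 13166 genes) 31 of 45 were lower and 1, Rrp1, was higher, whereas 21.0% of all genes tested were lower and 21.1% higher (42.1% in either direction). The median log2 fold change was -0.38, a fall of 23.3%, against -0.03 over all genes. The falls were moderate: among the 31 called genes they ran from -0.24 for Wdr75 to -0.98 for Ltv1, 13 of them were at least 0.5 on the log2 scale, and none of the 45 met the study's criteria of an adjusted p under 0.01 and a log2 fold change over 1.5, which 2.48% of all genes met. The genes are well expressed, with 289 to 43048 counts per library, and among the 6958 genes at least as abundant as the least abundant of them 25.9% were lower.

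The libraries showed the same picture one by one. Summed over the 45 genes, METTL7A1 replicates 1 to 3 had 7299, 7180 and 7376 cpm, and mock replicates 1 to 3 had 8931, 9380 and 8625 cpm, so that the groups did not overlap. Npm1 and Ncl, neither of them called, weigh heavily in these sums, with mock means of 1673 and 1365 cpm. In 34 of the 45 genes all METTL7A1 libraries lay under all mock libraries, compared with 25.6% of all genes tested, and in 1 gene they lay above (25.9% of all genes, or 51.6% in either direction). Mock replicate 3 was the mock library nearest to the METTL7A1 group: 37 of the 45 genes were under the mock mean in it, against 13 in mock replicate 1 and 7 in mock replicate 2. In METTL7A1 replicates 1 to 3 these were 40, 42 and 41 genes. The median log2 ratio to the mock mean was -0.09 in mock replicate 3 and -0.36, -0.40 and -0.39 in METTL7A1 replicates 1 to 3. Without mock replicate 3 the fit gave 32 lower genes, and without mock replicate 1 it gave 26.

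**Figure D1:**
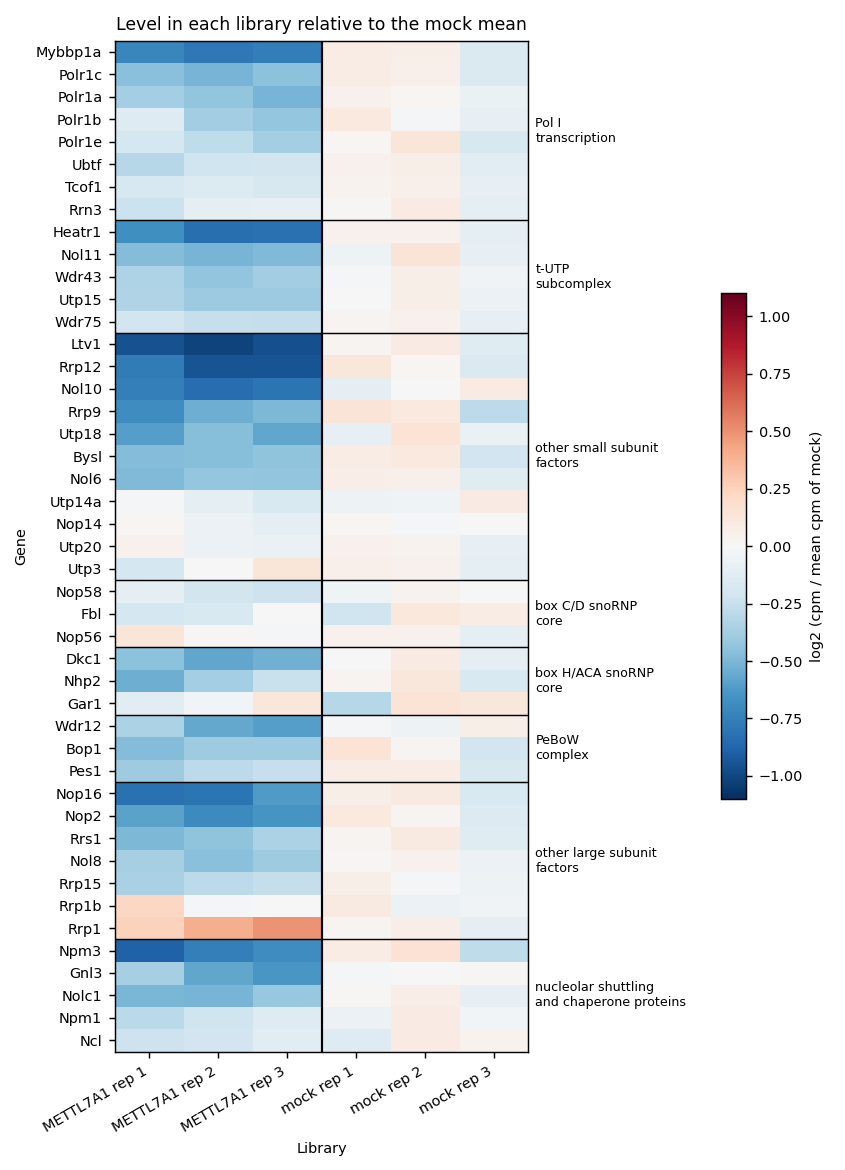
Level of each of the 45 genes (rows, grouped by role) in each of the 6 libraries (columns), as log2 of cpm over the mean cpm of the 3 mock libraries; blue is lower and red higher. The 3 METTL7A1 columns are blue for most genes, Rrp1 is the gene that is red in all 3 of them, and mock rep 3 is under the mock mean in 37 rows.

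Promoter sequences were looked at because so many of these genes moved together. RefSeq promoters on GRCm38.p6, 250 bases before to 50 after the start, were held for 38 of the 45 genes. The E-box CACGTG, a palindrome that MYC and MAX bind, was found in 9 of these 38 (23.7%), compared with 12.1% of the 8911 genes tested here that have a promoter entry and 8.09% of all 27025 genes with one. CCGGAAG, the core letters bound by ETS factors, searched on both strands, was found in 13 of 38 (34.2%), compared with 21.5% and 9.93%. The ends of these motifs are such that an E-box and a CCGGAAG on either strand cannot overlap each other. Among the genes called lower 7 of 27 held the E-box (25.9%), and among the others 2 of 11 (18.2%). In Ltv1, Pes1, Mybbp1a, Wdr43 and Utp20 the E-box lay past the start. The upstream ones are shown here, 5′ to 3′ on the strand of the gene, with the E-box in capitals and up to 30 bases to either side, to give the context of a motif shared by lowered genes (Nop2, Utp18 and Nol11) and by Rrn3, which was not called. In Nop2 the stretch lies at chr6:125131793-125131858, plus strand, in Utp18 at chr11:93885767-93885816, minus strand, in Nol11 at chr11:107189389-107189454, minus strand, and in Rrn3 at chr16:13780454-13780519, plus strand and chr16:13780621-13780686, plus strand.
Nop2: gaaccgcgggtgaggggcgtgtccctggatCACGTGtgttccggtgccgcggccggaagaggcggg
Utp18: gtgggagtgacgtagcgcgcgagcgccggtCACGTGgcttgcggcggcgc
Nol11: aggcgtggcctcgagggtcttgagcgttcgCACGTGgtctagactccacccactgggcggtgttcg
Rrn3, distal: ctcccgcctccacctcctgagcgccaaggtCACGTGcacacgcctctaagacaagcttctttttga
Rrn3, proximal: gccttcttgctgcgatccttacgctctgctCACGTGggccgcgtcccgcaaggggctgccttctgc
The centre of the E-box was 57 bases before the start in Nop2, 17 in Utp18 and 40 in Nol11, and 212 and 45 bases before it in Rrn3. A match describes the letters and not binding.

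Pol I transcription was represented by 8 genes, of which 6 were lower and none higher (median -0.30). Polr1a (chr6:71909061-71982475, coordinates being those of the table on mm10), the largest catalytic subunit, had 145, 139 and 132 cpm in METTL7A1 replicates 1 to 3 and 194, 189.9 and 178 cpm in mock replicates 1 to 3. The groups were apart by more than the spread within either, with a log2 change of -0.44 (SE 0.07, edgeR adjusted p = 0.000592). Polr1b, the second catalytic subunit, had 82.8, 70.3 and 68.2 cpm in METTL7A1 and 98.6, 90.3 and 85.8 cpm in mock libraries. METTL7A1 replicate 1 came close to the lowest mock library, and the log2 change of -0.31 (SE 0.09, edgeR adjusted p = 0.0143) was not called without METTL7A1 replicate 2, METTL7A1 replicate 3 or mock replicate 1. Polr1c, a subunit shared with RNA polymerase III, had 32.2, 31.0 and 32.2 cpm against 46.8, 46.0 and 39.6 cpm, and the METTL7A1 libraries were almost equal to each other. Its log2 change of -0.47 (SE 0.08, edgeR adjusted p = 0.000881) was past the threshold whichever library was left out, and came to -0.27 with the change of chromosomal neighbours taken off. Polr1e, a subunit that acts with initiation factors, was the least abundant of these, with 20.5, 19.3 and 18 cpm against 23.8, 25.7 and 20.8 cpm. The gap to mock replicate 3 was narrow. Its log2 change of -0.28 (SE 0.10, edgeR adjusted p = 0.039) was lost in 4 of the 6 fits that left out a library.

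Among the Pol I factors the largest fall was that of Mybbp1a (chr11:72441355-72451768), a nucleolar MYB-binding protein known to act on rRNA synthesis. It had 429, 409 and 416 cpm in METTL7A1 and 749, 737 and 634 cpm in mock libraries. No METTL7A1 library came near a mock library, and the log2 change of -0.76 (SE 0.09, edgeR adjusted p = 6.09e-05) corresponded to a level 1.69-fold lower. With the change of its chromosomal neighbours (median -0.34) taken off it was -0.42, behind Polr1b at -0.55, Tcof1 at -0.47 and Polr1a at -0.44. Ubtf, the factor that binds ribosomal DNA along the transcribed repeat, had 116, 124 and 125 cpm against 149, 151 and 132 cpm. Mock replicate 3 was again the nearest to the METTL7A1 group, and the log2 change of -0.25 (SE 0.07, edgeR adjusted p = 0.0205) was lost without METTL7A1 replicate 2, mock replicate 1 or mock replicate 2. Tcof1 (treacle), a nucleolar phosphoprotein that supports rRNA transcription, had 91.3, 92.9 and 91.4 cpm against 106, 107 and 96.8 cpm. Its groups did not overlap, but the log2 change of -0.17 (SE 0.07, edgeR adjusted p = 0.0648) missed the threshold. Rrn3, the initiation factor that makes Pol I competent to start, had 108, 119 and 121 cpm against 129.6, 136 and 119 cpm. Here METTL7A1 replicates 2 and 3 lay slightly above mock replicate 3, and the log2 change of -0.14 (SE 0.08, edgeR adjusted p = 0.161) did not pass.

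The t-UTP subcomplex is the part of the small subunit processome that assembles on the nascent precursor and is also needed for its transcription. All 5 of its listed genes were lower, with a median of -0.38. Heatr1 (chr13:12395398-12438677), its largest protein, had 131, 117 and 118 cpm in METTL7A1 and 215, 216 and 195 cpm in mock libraries. This was a log2 change of -0.77 (SE 0.08, edgeR adjusted p = 2.18e-05), or 1.71-fold lower. Nol11 had 74.4, 72.6 and 73.6 cpm against 99.4, 114 and 96.8 cpm, and the METTL7A1 libraries differed from each other by far less than from mock. Its log2 change of -0.49 (SE 0.08, edgeR adjusted p = 0.000411) was past the threshold in all 15 alternative fits. Wdr43, Utp15 and Wdr75, all of them scaffold proteins of this subcomplex, had log2 fold changes of -0.38 (SE 0.07), -0.38 (SE 0.07) and -0.24 (SE 0.07), the last of which was lost in 4 of the 6 fits without a library. The row Cirh1a, the earlier name of Utp4, had 78.6, 82.4 and 79.0 cpm against 123, 124 and 106 cpm and thus moved in the same direction, with a log2 change of -0.56 (SE 0.08, edgeR adjusted p = 0.000191).

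Among the other 11 genes of small subunit assembly, 7 were lower and 4 were not called, and they included the largest falls of all 45. Ltv1 (chr10:13178640-13193137), an assembly factor that rides on the late small subunit precursor and must leave it in the cytoplasm, had 40.6, 39.1 and 40.5 cpm in METTL7A1 and 80.5, 84.4 and 72.3 cpm in mock libraries. The METTL7A1 libraries were almost equal and far under the lowest mock library, with a log2 change of -0.98 (SE 0.08, edgeR adjusted p = 3.32e-06), or 1.97-fold lower, and -0.64 relative to its chromosomal neighbours. Rrp12 (chr19:41862852-41896153), which takes part in processing and nuclear export, had 80.2, 70.8 and 70.8 cpm against 149, 138 and 122 cpm. The log2 change of -0.89 (SE 0.09, edgeR adjusted p = 2.09e-05) made it the next largest fall. Nol10 (chr12:17348458-17430094), a protein of the processome, had 49.4, 46.3 and 47.5 cpm against 77.4, 83.3 and 88.0 cpm. In this gene mock replicate 3 was the highest mock library, and the log2 change of -0.80 (SE 0.07, edgeR adjusted p = 1.10e-05) was also past the threshold in all 15, but came to -0.34 with the change of its chromosomal neighbours (median -0.46) taken off.

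The remaining called genes of this group fell by less. Rrp9, the protein specific to the U3 snoRNP, had 36.4, 40.3 and 41.6 cpm in METTL7A1 and 64.6, 62.9 and 47.9 cpm in mock libraries. Mock replicate 3 stood below the other mock libraries here, and the log2 change of -0.56 (SE 0.11, edgeR adjusted p = 0.00182) had the largest SE of the 7. Utp18, a processome component that recruits the exosome, had 49.0, 53.9 and 50.1 cpm against 70.0, 82.6 and 70.5 cpm. Its groups were well separated, with a log2 change of -0.54 (SE 0.08, edgeR adjusted p = 0.000365). Bysl (bystin), needed late in small subunit maturation, had 36.9, 37.1 and 37.8 cpm against 54.3, 55.1 and 44.3 cpm. The log2 change of -0.46 (SE 0.09, edgeR adjusted p = 0.0018) was called in all fits. Nol6, a processome protein, had 45.0, 47.1 and 46.6 cpm against 66.2, 65.4 and 57.6 cpm. This gave a log2 change of -0.45 (SE 0.07, edgeR adjusted p = 0.000678). Nop14, Utp14a, Utp20 and Utp3, all processome proteins, were not called and their groups overlapped, with log2 fold changes of -0.05 (SE 0.07), -0.09 (SE 0.08), -0.03 (SE 0.08) and -0.01 (SE 0.09).

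The snoRNPs guide chemical modification of rRNA, the box C/D class by 2′-O-methylation and the box H/ACA class by pseudouridylation. None of the 3 box C/D core genes was called. The one with the largest change was Nop58, a scaffold protein, with 343, 318 and 312 cpm in METTL7A1 and 354, 376 and 367 cpm in mock libraries. Its groups did not overlap, but the log2 change of -0.18 (SE 0.07, edgeR adjusted p = 0.0807) missed the threshold. Nop56, the partner scaffold, was at 0.04 (SE 0.08) on the log2 scale and Fbl (fibrillarin), the methyltransferase itself, at -0.12 (SE 0.10), both with overlapping groups. In the box H/ACA class 2 of 3 were lower. Dkc1 (dyskerin), the pseudouridine synthase, had 126, 116 and 119 cpm against 173, 183 and 161 cpm. The groups were clearly apart, with a log2 change of -0.52 (SE 0.07, edgeR adjusted p = 0.000251). Nhp2, a core protein that binds the guide RNA, was also lower at -0.38 (SE 0.09), while Gar1, a further core protein, was at -0.01 (SE 0.12) with overlapping groups. Whether the classes differ from each other was not tested.

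**Figure D2:**
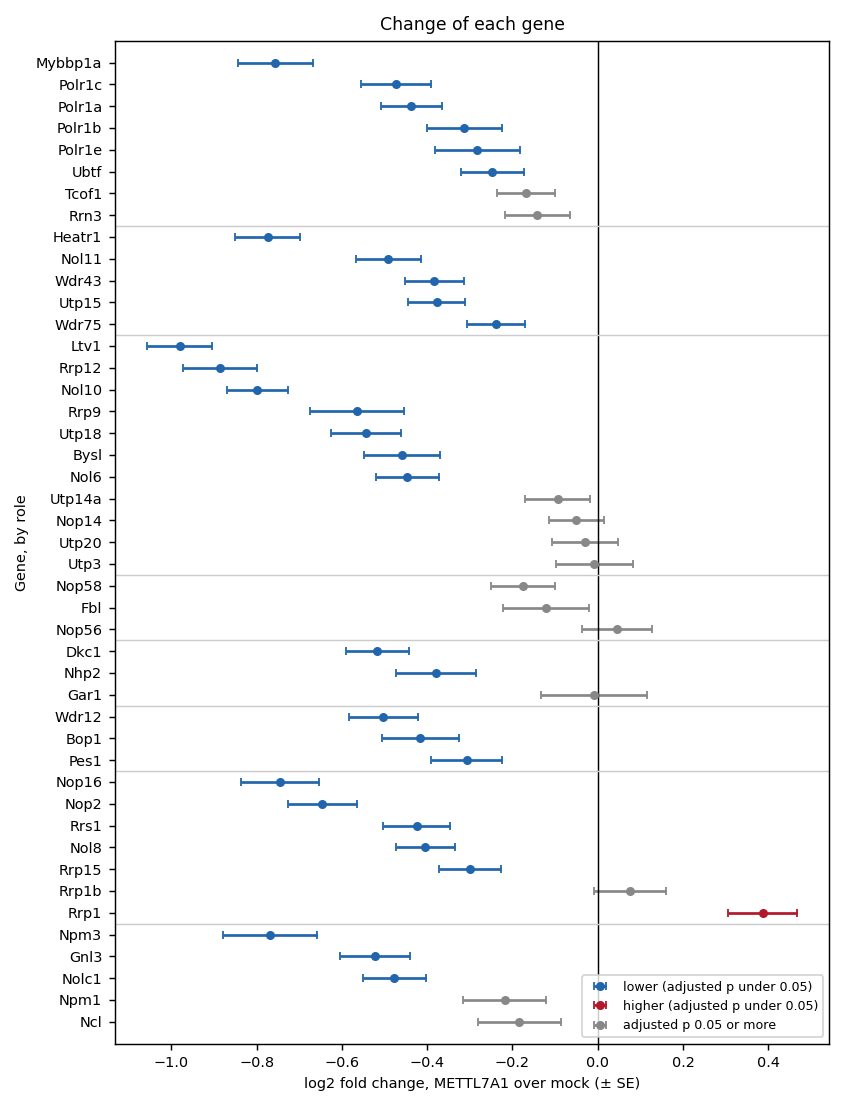
Log2 fold change of METTL7A1 over mock (points) with its SE (bars) for each of the 45 genes, grouped by role with grey lines between groups in the order of the heat map. Of the 45 points, 31 are lower, 1 (Rrp1) is higher, and 13 have an adjusted p of 0.05 or more, among them all 3 box C/D core genes.

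On the side of the large subunit, the PeBoW complex, a trimer needed to process the precursor of 28S and 5.8S rRNA, was lower in all 3 of its genes. Wdr12 had 109, 93.7 and 91.2 cpm in METTL7A1 and 138, 134 and 145 cpm in mock libraries. METTL7A1 replicate 1 was the highest of its group but stayed under every mock library, and the log2 change of -0.50 (SE 0.08, edgeR adjusted p = 0.000542) was called in all fits. Bop1 had 71.5, 76.1 and 76.2 cpm against 111, 102 and 86.5 cpm. Here the mock libraries were spread more widely than the METTL7A1 libraries, with a log2 change of -0.42 (SE 0.09, edgeR adjusted p = 0.00341). Pes1 was lower with a log2 fold change of -0.31 (SE 0.08), a call lost without mock replicate 1.

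Of the other 7 large subunit genes, 5 were lower and 1 higher. Nop16 (chr13:54584185-54590090), a nucleolar assembly factor, had 27.4, 27.7 and 31.4 cpm in METTL7A1 and 50.6, 51.7 and 43.0 cpm in mock libraries. The log2 change of -0.75 (SE 0.09, edgeR adjusted p = 9.08e-05) was the largest fall in this group and was lost when the change of its chromosomal neighbours, the lowest of all 45, was taken off. Nop2 (chr6:125131909-125144753), a methyltransferase for 28S rRNA whose promoter stretch was shown with the E-box, had 131, 120.5 and 125 cpm against 212, 199.7 and 177 cpm. The lowest mock library exceeded the highest METTL7A1 library by a wide margin, with a log2 change of -0.65 (SE 0.08, edgeR adjusted p = 0.000103). Rrs1, which helps to bring the 5S RNP into the precursor, had 46.1, 47.8 and 51.0 cpm against 66.1, 69.3 and 59.2 cpm. Its fall was a log2 change of -0.42 (SE 0.08, edgeR adjusted p = 0.00138). Nol8 had 43.1, 40.2 and 42.3 cpm against 56.0, 57.1 and 53.0 cpm, in groups that were tight and separate. Its log2 change of -0.40 (SE 0.07, edgeR adjusted p = 0.000802) was lost in the same way. Rrp15, a further processing factor, was lower with a log2 fold change of -0.30 (SE 0.07).

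Rrp1 was the exception. Rrp1 (chr10:78400362-78413043), a large subunit processing factor, had 126, 139 and 148 cpm in METTL7A1 and 108, 111 and 98.1 cpm in mock libraries, so that each METTL7A1 library was above each mock library. This rise was a log2 change of 0.39 (SE 0.08, edgeR adjusted p = 0.0028). The median change of its 40 nearest abundant genes on chromosome 10 was 0.29, and taking this off left 0.09 (SE 0.08). Its paralog Rrp1b had overlapping groups and a log2 fold change of 0.08 (SE 0.08).

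The 5 nucleolar shuttling and chaperone genes comprised 3 that were lower and 2 that were not called. Npm3 (chr19:45747734-45749591), a nucleoplasmin family chaperone, had 30.4, 33.4 and 35.1 cpm in METTL7A1 and 59.7, 62.8 and 46.4 cpm in mock libraries. Mock replicate 3 was lowest in its group and still above all METTL7A1 libraries, with a log2 change of -0.77 (SE 0.11, edgeR adjusted p = 0.000255). Gnl3 (nucleostemin), a nucleolar GTPase known from stem and tumour cells, had 188, 164 and 156 cpm against 241, 242 and 245 cpm. The mock libraries were nearly equal, and the log2 change of -0.52 (SE 0.08, edgeR adjusted p = 0.000466) was called in all fits, with -0.29 relative to chromosomal neighbours. Nolc1, a phosphoprotein that chaperones snoRNPs, had 186, 185 and 197 cpm against 265, 278 and 247 cpm. The groups were separate, with a log2 change of -0.48 (SE 0.07, edgeR adjusted p = 0.000447) and -0.23 relative to chromosomal neighbours. Ncl (nucleolin) and Npm1 (nucleophosmin), abundant nucleolar proteins of many functions, were at -0.18 (SE 0.10) and -0.22 (SE 0.10) on the log2 scale and were not called. Npm1 and Nop58 were past the threshold with DESeq2, the 2 genes for which that tool added a call.

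Levels differed widely between these genes when counts were also divided by exon length (cpm per kilobase). In mock cells Npm1 was highest with 824 ± 45.2, followed by Nop56 with 257 ± 14.9, Ncl with 166 ± 13.6 and Mybbp1a with 162 ± 14.5 (mean ± SD, n = 3). Ncl and Mybbp1a lay within their spread of each other, whereas Npm1 was far above the rest. Polr1e was lowest with 6.79 ± 0.717. The order depends on the annotated exon length, which was 8202 bases for Ncl and 1907 for Nop56. Without that division Ncl was above Nop56, with mock means of 1365 and 490 cpm. The 9 genes highest per length had a median log2 fold change of -0.38 and the other 36 of -0.39. At the very top this did not hold: Npm1, Nop56 and Ncl were not called, at -0.22, 0.04 and -0.18. Mybbp1a, the next, was lower.

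A further 86 genes of the same pathway, from a list of 87 that holds no member of the 45, were lower in 46 cases and higher in 4 (53.5% and 4.65%, against 21.0% and 21.1% of all genes), with a median of -0.28. By role, 8 of 14 further Pol I genes were lower and 1 higher, 16 of 34 small subunit genes were lower and 2 higher, and 22 of 38 large subunit genes were lower and 1 higher. The largest falls were those of Polr1d, a subunit shared by Pol I and Pol III, with -0.83 (SE 0.08), of Rpf2, which brings the 5S RNP into the large subunit, with -0.68 (SE 0.08), and of Cd3eap, now Polr1g, a Pol I subunit, with -0.65 (SE 0.11). Polr1d had 44.5, 49.0 and 51.1 cpm in METTL7A1 against 88.2, 91.7 and 77.7 cpm in mock libraries, with the groups far apart. The largest rises were those of Las1l, an endonuclease of the internal spacer, with 0.32 (SE 0.07), of Riok3, a kinase of the small subunit, with 0.29 (SE 0.07), and of Polr2e, a subunit of all 3 nuclear polymerases, with 0.24 (SE 0.08). The call of Polr2e was lost without METTL7A1 replicate 2, METTL7A1 replicate 3 or mock replicate 3, and with the change of chromosomal neighbours taken off Riok3 and Polr2e came to -0.05 and -0.08 and Rpf2, no longer called, to -0.18.

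Counting subunits of the Pol I enzyme from both lists, those with a Polr1 symbol today (Polr1a to Polr1e, Twistnb, Cd3eap and Znrd1) were lower in 7 of 8, from -0.83 to -0.28. For Twistnb, at -0.49 (SE 0.08), the median of chromosomal neighbours was -0.52, a remainder of 0.03, and for Polr1d the remainder was -0.44. Znrd1 was the one not called, at -0.33 (SE 0.12) with an edgeR adjusted p of 0.0514. The 5 subunits shared by all 3 nuclear polymerases, which carry Polr2 symbols, were lower in 2, higher in 1 and not called in 2. Of the 4 TAF1 genes of the promoter selectivity factor 3 were lower, but Taf1b, at -0.28 (SE 0.09), lay 0.24 above its chromosomal neighbours, whose median was -0.52. These subsets were formed after their values had been seen.

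**Figure D3:**
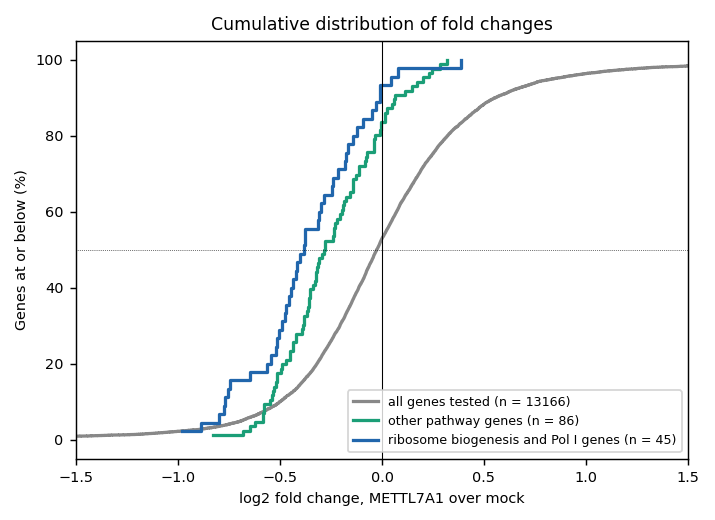
Cumulative share of genes (percent, y axis) at or below each log2 fold change of METTL7A1 over mock (x axis, shown from -1.5 to 1.5) for the 45 genes, the 86 other pathway genes and all 13166 genes tested. At the dotted line of 50% the curves lie at -0.38, -0.28 and -0.03, so both pathway curves are left of that of all genes.

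The transcription factor network around MYC was listed as well, with 10 genes of which 9 were tested. Myc itself was not lower: it had 168, 176 and 176 cpm in METTL7A1 and 149.7, 148 and 142 cpm in mock libraries, with every METTL7A1 library above mock and a log2 change of 0.24 (SE 0.07, edgeR adjusted p = 0.0122). This call was lost without METTL7A1 replicate 2. Max, the obligate partner of MYC, was lower with 32.1, 28.8 and 29.2 cpm against 52.0, 54.8 and 47.9 cpm, a log2 change of -0.78 (SE 0.08, edgeR adjusted p = 2.45e-05) on a stretch of chromosome 12 whose 40 nearest abundant genes had a median of -0.48. Genes for several other proteins that pair with MAX were higher: Mga with 0.75 (SE 0.08), Mnt with 0.38 (SE 0.11), Mxd1 with 0.50 (SE 0.18) and Mxd4 with 0.50 (SE 0.16). Relative to chromosomal neighbours Max was at -0.30, Mga at 0.49, Mnt at 0.51, Mxd1 at 0.61 and Mxd4 at 0.58. Mycl was also higher at 0.97 (SE 0.16), although at only 3.08 ± 0.331 cpm (SD, n = 3) in mock, Mlx was lower at -0.28 (SE 0.09), Mxd3 was not called at -0.16 (SE 0.15), and Mycn had at most 1 count in any library. In total 6 of the 9 were higher and 2 lower, where 21.1% of all genes were higher and 21.0% lower. All of these but Myc were named after their values had been seen.

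The product of this pathway was removed from the libraries by depletion of rRNA, and what was left of the ribosomal repeat appeared in 3 rows of chromosome 17. Gm26917 had 32594, 32056 and 27423 cpm in METTL7A1 and 62473, 54740.1 and 53137 cpm in mock libraries. These groups did not overlap, with a log2 change of -0.89 (SE 0.19, edgeR adjusted p = 0.00294). Gm42418 was also lower at -1.03 (SE 0.27), but AY036118 ranged from 0.502% to 4.53% of all counts in METTL7A1 and from 0.966% to 13.1% in mock libraries, a spread so wide that its groups overlapped, with a log2 change of -1.47 (SE 0.84, edgeR adjusted p = 0.184). AY036118 lies within Gm42418 on the opposite strand, so their reads cannot be told apart if strand was not used in counting. As depletion can differ from library to library, the part that it had in these rows was not tested, and they are no measure of rRNA synthesis. With the 20 most abundant genes removed from the table, 31 of the 45 genes were lower.

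The 45 genes lay on 19 chromosomes, and those called lower on 14 of these, a spread that depends on where the listed genes lie. Changes differed from stretch to stretch of chromosome, so each gene was set beside the median log2 fold change of its 40 nearest abundant genes. These neighbour medians ran from -0.51 at Nop16 to 0.43 at Utp20, with a median of -0.05, and 40 of the 45 genes were under the median of their own neighbours. The share of all genes tested that lay under theirs was not computed. Where neighbours were higher, 8 of 16 genes were lower (median -0.21), among them Polr1b, Bop1 and Wdr75, and where neighbours were lower 23 of 29 were lower (median -0.46). With the neighbour median taken off as an offset, 29 of 45 genes were lower than their neighbours and none higher. Of all genes 13.4% were lower than their neighbours in that fit. This is not the same as a lower level in METTL7A1 cells, as Utp20, at -0.03 without the offset, shows. Of the 31 genes 26 were still called, with Polr1e, Ubtf, Pes1, Nop16 and Nol8 lost, and Rrn3 (-0.40, SE 0.08), Tcof1 (-0.47, SE 0.07) and Utp20 (-0.46, SE 0.08) were added. Rrp12 (-0.94, SE 0.09) and Heatr1 (-0.72, SE 0.08) had the largest falls relative to their neighbours, and Ltv1 kept -0.64 (SE 0.08). The neighbour median was entered as a fixed value, so the SEs and calls of that fit leave out its own error. The falls of Polr1b (-0.55, SE 0.09) and Wdr75 (-0.42, SE 0.07) were larger in that fit.

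**Figure D4:**
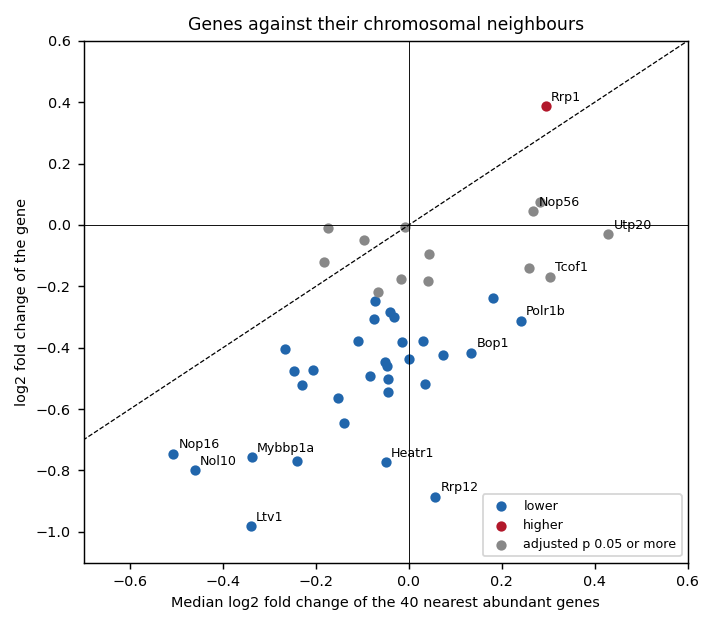
Log2 fold change of each of the 45 genes (y axis) against the median log2 fold change of its 40 nearest abundant genes on the same chromosome (x axis), coloured by call; the dashed line marks equal values. Below the line lie 40 of the 45 points, with Rrp1 above it and Rrp12 and Heatr1 far below it.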

How the data were processed

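Total RNA from 3 METTL7A1 and 3 mock cultures, described as biological triplicates, was depleted of rRNA and sequenced as stranded paired-end libraries. The authors trimmed reads with BBDuk, aligned pairs to mm10 with STAR 2.5.3a and counted them per gene with featureCounts, and deposited raw counts without normalization, with the exon length of each gene as an other, annotation value. Strand and multi-mapping settings are not given in the sources used here. Groups and replicate numbers came from sample titles. All count columns belonged to these 6 libraries.

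Counts were fitted in R 4.3.3 with edgeR 4.0.16 (TMM scaling, at least 1 cpm in at least 3 libraries, glmQLFit and glmQLFTest, no covariate), with Benjamini-Hochberg adjustment of p values across the 13166 genes. A gene was called at an adjusted p under 0.05. The SE was the log2 fold change divided by the square root of F, and with the neighbour offset it left out the error of the neighbour median. The cpm used TMM-scaled totals, and neighbours were genes with an average over 2 (log2 cpm). The 45 genes and all lists were chosen with earlier results of these data known. Each of the 45 genes was named, with values per library for the Pol I group, for called genes with a log2 fold change of at least 0.4 and for the largest change of each group. Of the other lists only some genes were named. In simulated data (13166 genes, 100 changed by 0.5 on the log2 scale and 100 by more) 61% of the smaller changes were called. Only 168 genes were called there in all, far fewer than in the real data. Adjustment is stricter when few genes change, so the 61% is not the sensitivity of the test here. Alternatives were RLE and upper quartile scaling, no filter, a filter of 10 counts in each library, the 20 most abundant genes removed, a replicate block, omission of each library, DESeq2 1.42.0, voom of limma 3.58.1, the neighbour offset and the study's criteria.

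Table coordinates are mm10, and 29 of the 45 positions were identical in GENCODE M21. No gene of the 45 shared exon bases with a gene on the same strand, and 13 did with one on the opposite strand. For Bysl and Ccnd3 (361 bases, up to 858 counts of Ccnd3), and for Cd3eap and Ercc1 (106 bases, up to 2804 counts of Ercc1), reads cannot be told apart there if strand was ignored. The same holds for Mybbp1a and Spns2 (131 bases, up to 998 counts of Spns2). It also holds for Dkc1 and Mpp1 (45 bases, up to 1448 counts of Mpp1) and for Bop1 and Mroh1 (43 bases, up to 1466 counts of Mroh1). Npm1 has processed pseudogenes, with which its reads can be shared, and Npm3-ps1 had at most 140 counts.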

Additional observations from a re-analysis of the deposited data

How the results depend on the processing

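The count of lower genes among the 45 was between 28 and 32 under every scaling, filter and tool tried, and 26 to 32 when each library was left out. With the neighbour offset, where lower means lower than the chromosomal neighbours, the count was 29, of which 26 were among the 31 of the main fit. The count of higher genes was 1, with or without any 1 library, and 0 with the neighbour offset. The median of the 45 lay between -0.43 and -0.35. Among the 86 other pathway genes, the number of higher genes was 4, fell to 2 with the replicate block and to 1 with the neighbour offset, and ranged from 2 (without METTL7A1 replicate 2, METTL7A1 replicate 3 or mock replicate 3) to 5 across the omitted libraries; the number of lower genes ranged from 37 to 51 across them. With the study's criteria 0 members and 0 other pathway genes were called in either direction, since none changed by as much as its fold change threshold. Libraries that share a replicate number did not deviate together (correlations of deviations -0.15, 0.20 and -0.37 for numbers 1 to 3), so the numbers were not taken as pairs. The replicate block gave 31 lower and 1 higher among the 45 and 41 lower among the other pathway genes.

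Of the 32 called genes 24 were called in the same direction under all 15 alternatives, 8 lost the call in at least 1 of them (Polr1b, Polr1e, Ubtf, Wdr75, Pes1, Nop16, Rrp1 and Nol8), and none changed direction. Changes of sign among the 45 concerned genes that were not called. Of the 6 other pathway genes named by rule, Riok3 and Polr2e, both called higher, changed sign; set against their neighbour medians, 3 further called genes did so too, Wdr36 (-0.062), Twistnb (0.028) and Taf1b (0.24). The cause was not tested. With the neighbour offset Nop14 was at 0.047, Utp3 at 0.00056, Fbl at 0.061, Nop56 at -0.22, Gar1 at 0.17, Rrp1b at -0.21, Riok3 at -0.049 and Polr2e at -0.078. Without an abundance filter Utp3 was at 0.028, Utp20 at 0.0050 and Gar1 at 0.025, and without the 20 most abundant genes Utp3 and Gar1 were at 0.011 and 0.0094. Gar1 was at 0.00037 with the replicate block. With each library left out in turn, Utp3 ranged from -0.080 to 0.081, Gar1 from -0.12 to 0.066 and Utp20 from -0.064 to 0.0078. The lowest count of any of the 45 in a library was 289, and the effect of depth on the calls was not tested. P values measure the spread between 3 cultures of each line and not between independent transfections.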

Other observations

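The other nuclear polymerases and the RNA exosome, chosen after values had been seen, were read from the same test. Over all genes tested 21.0% were lower and 21.1% higher. Of 7 subunits found only in RNA polymerase II 1 was lower (14.3%), Polr2b at -0.31 (SE 0.08), and the median log2 fold change was -0.11. Of 11 subunits listed for RNA polymerase III, which transcribes 5S rRNA and tRNAs, 5 were lower (45.5%) and 1 was higher (9.09%). Its largest subunit Polr3a was lower at -0.72 (SE 0.09), and Polr3d at -0.53 (SE 0.08), or -0.40 and -0.33 relative to chromosomal neighbours. The alternative subunits of this enzyme moved in opposite directions: Polr3g had 21.8, 21.1 and 19.5 cpm in METTL7A1 and 33.7, 35.6 and 31.6 cpm in mock libraries, a log2 fold change of -0.70 (SE 0.08), while its paralog Polr3gl had 3.83, 4.60 and 4.38 cpm against 2.24, 1.90 and 3.18 cpm, a change of 0.81 (SE 0.21). Neither pair of groups overlapped, which was also so for 51.6% of all genes tested. The median of chromosomal neighbours was -0.57 for Polr3g, which left -0.13, and -0.13 for Polr3gl, which left 0.93.

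The exosome trims rRNA precursors at their 3′ ends. Of 12 tested genes of it and its cofactors 7 were lower (58.3%, against 21.0% of all genes) and none higher. Their median was -0.22, or -0.17 relative to chromosomal neighbours. The nuclease Dis3 was lowest at -0.67 (SE 0.08), with 142, 126 and 121 cpm in METTL7A1 and 209.9, 213 and 197 cpm in mock libraries, or -0.37 relative to chromosomal neighbours, and the nuclear nuclease Exosc10 was at -0.35 (SE 0.07).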
